A study of Mus musculus with 4 samples.

Results

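The 10 genes described here form the Notch pathway and the secretory fate switch of the intestinal epithelium. They are the receptors Notch1 and Notch2, the ligands Dll1, Dll4 and Jag1, the target repressors Hes1 and Hey1, and the fate factors Atoh1, Spdef and Gfi1. They were taken by name, and all 10 were found among the 27514 genes shared by the 4 gene tables. Their transcripts were followed by single-cell RNA sequencing of small intestinal adenomas, through adenoma, crypt, goblet, Paneth, tuft, enteroendocrine and absorptive cells.

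The libraries came from C57BL/6 mice labelled male and aged 11 weeks, 2 labelled ApcMin and 2 labelled VApcMinL. All mice carried ApcMin/+, a truncating mutation in 1 copy of the Wnt antagonist gene Apc. The ApcMin group was ApcMin/+;Lef1 +/+, and the VApcMinL group was ApcMin/+;Lef1 fl/fl with Villin-Cre, a constitutive transgene that acts in the intestinal epithelium and is not restricted to adenoma cells. Each library pooled several dissociated, unsorted tumors, and the number of mice per library was not given in the sources used here. The p-values therefore cover these libraries only and not the spread between mice. Between genotypes, they measure the spread between libraries that is left after the kit. Between classes of cells, library was a block in a joint fit of all classes. Those p-values measure the spread of class sums left within libraries, pooled over all classes, small ones included. The 10x Genomics 3′ reagents were of kit version 2 in replicate 1 of either group and of kit version 3 in replicate 2. The comparisons ask how the switch is set in each class of cells and whether it differs between adenomas labelled with intact and with deleted Lef1, a transcription factor of the Wnt pathway.

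Notch receptors are cleaved when a ligand on a neighboring cell binds them, and the released fragment joins RBPJ on DNA to activate the Hes and Hey repressors. In the intestinal crypt, Hes1 represses Atoh1, so that a cell with active Notch takes the absorptive path. A cell that escapes Notch keeps Atoh1, displays Dll1 and Dll4 and becomes secretory, with Spdef and Gfi1 acting downstream in goblet and Paneth cells.

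Cells were gated by the UMIs (unique molecular identifiers, 1 per captured transcript) of marker lists that hold none of the 10 genes. Throughout, values are given first for kit 2 (ApcMin replicate 1, then VApcMinL replicate 1) and next for kit 3 (ApcMin replicate 2, then VApcMinL replicate 2). The libraries held 44660305, 49009488, 98714025 and 128247396 UMIs, and 2840, 2965, 2146 and 4449 barcodes were kept. The adenoma gate (Notum, Nkd1, Axin2 and 4 other Wnt pathway genes and markers) held 451, 512, 300 and 1720 cells, and the crypt gate (Olfm4 and 4 others) held 304, 305, 150 and 298. Adenoma cells also had to be low in the crypt list, and crypt cells low in the adenoma list. Whether gate markers such as Olfm4 themselves depend on Notch was not tested. Goblet cells numbered 52 to 123 per library and absorptive cells 370 to 1058, but Paneth, tuft and enteroendocrine cells only 10 to 40, so single UMIs weigh on their values. The kit 2 libraries shared 18 cell barcodes, and any other pair at most 1. Levels are given as CPM, that is, UMIs of a gene for each 1000000 UMIs of the gated cells of a library.

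Some values go against the labels or the class names. Lef1 in adenoma cells stood at 10.3, 31.9, 40.4 and 23.8 CPM, higher in the library labelled VApcMinL than in that labelled ApcMin in kit 2 and lower in kit 3, while crypt cells held at most 0.769 CPM. The deleted exons were not given in the sources used here, and a 3′ count outside them checks nothing. Xist was at 0 and 0.0866 CPM in the adenoma cells of the libraries labelled ApcMin and at 1200 and 322 CPM in those labelled VApcMinL, although all were labelled male, so the labelled genotype and this difference cannot be told apart. Libraries are therefore named by their labels. The summed adenoma markers in adenoma cells were at 524, 1997, 1802 and 615 CPM, a spread that the genotype does not order. The mitochondrial limit removed 62.9% of the barcodes of ApcMin replicate 2 and 27.3% to 30.5% in the other libraries. In the Paneth gate, the alpha-defensins Defa21 and Defa22 were at 0 UMIs in VApcMinL replicate 1, while Lyz1, Itln1 and Mptx2 were present in all 4 libraries. Paneth-gated cells also held 397 to 576 CPM of the adenoma markers against 18 to 23 CPM in crypt cells, while tuft cells held 274 to 416 CPM and enteroendocrine cells 51 to 1365 CPM. By edgeR's test, Lef1 was also higher than in crypt cells in Paneth (log2 difference 4.40 ± 0.74, adjusted p = 3.25e-05), tuft (4.19 ± 0.96, adjusted p = 0.00137) and enteroendocrine cells (4.65 ± 0.94, adjusted p = 0.00027). Smaller differences were called in goblet (2.49 ± 0.78, adjusted p = 0.0167) and absorptive cells (1.46 ± 0.62, adjusted p = 0.0417). The part of the adenoma markers and Lef1 in the results of these classes was not tested.

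Compared with crypt cells, adenoma cells held more Hey1, Spdef, Dll4 and Notch1 and less Dll1 and Jag1, while Hes1, Notch2, Atoh1 and Gfi1 did not pass the test. These 6 of 10 genes were called at an adjusted p of 0.05 (edgeR's quasi-likelihood test, Benjamini-Hochberg), where 47.4% of all 11570 genes tested were called. The median log2 change was 0.48 over the 10 genes and 0.03 over all genes. With a background that high, the count of 6 says little about the set. Among its genes, Hey1 rose by 4.60 on the log2 scale and Dll1 fell by 1.94. In goblet cells 6 of the 10 were higher and 1 lower than in crypt cells, against a background of 29.2% of genes called. In these bulk sums, fewer transcribing cells and less RNA per cell cannot be told apart.

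**Figure D1:**
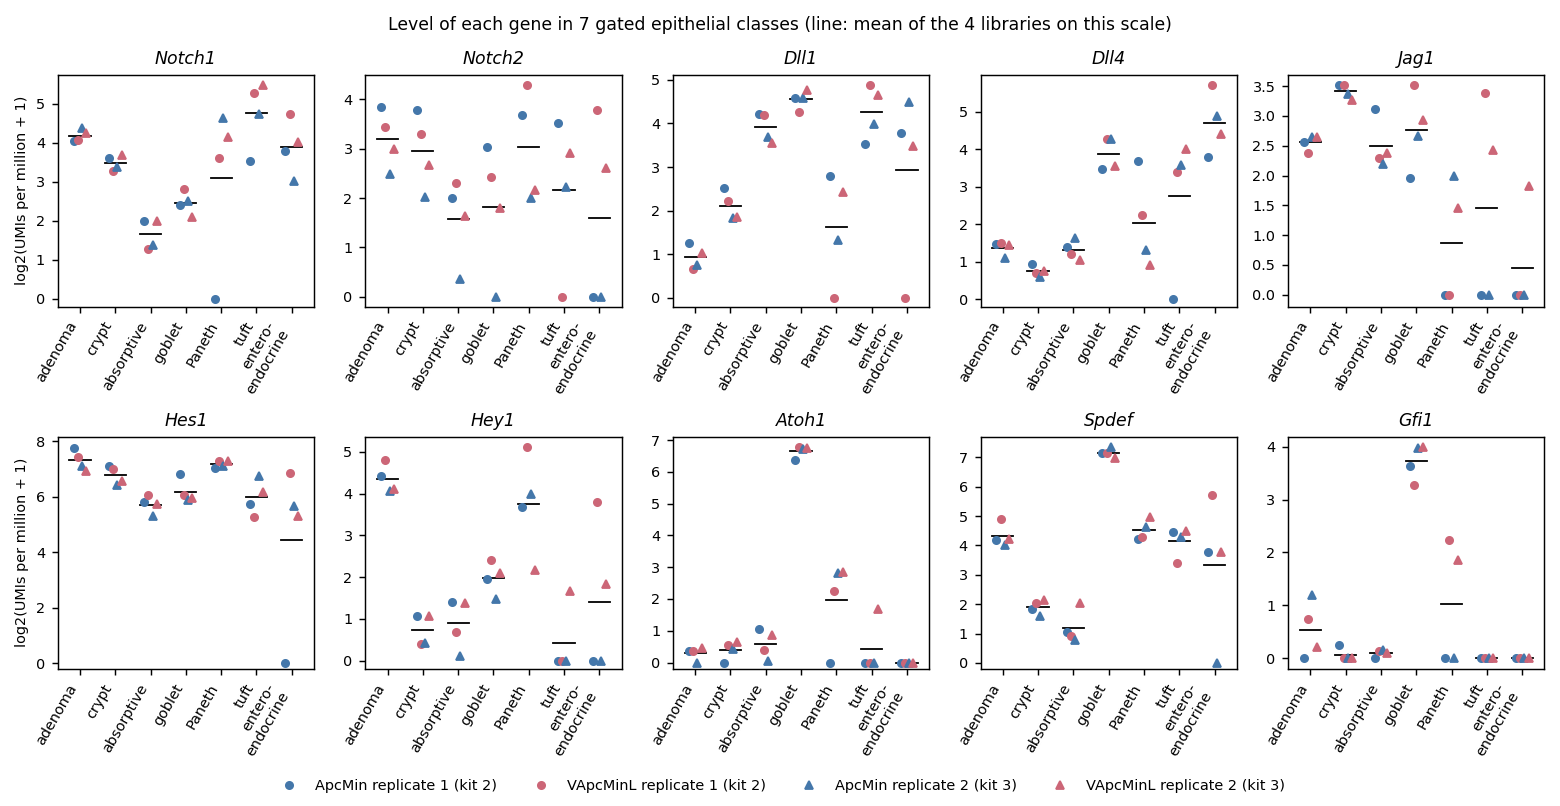
Level of each of the 10 genes (y axis, log2 of CPM + 1) in the gated classes (x axis), with 1 point per library, blue for ApcMin, red for VApcMinL, circles for kit 2 and triangles for kit 3, and a line at the mean of the 4 libraries. Atoh1 stands at 81.9 to 108 CPM in goblet cells and below 1 CPM in adenoma cells, whereas Spdef is at 15.3 to 29.2 CPM in adenoma cells and 2.04 to 3.43 CPM in crypt cells.

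The receptor genes were detected in all 7 epithelial classes. Notch1 (GRCm38, chr2:26457903-26516663, minus strand) stood in adenoma cells at 15.5, 15.9, 19.8 and 17.9 CPM, and in crypt cells at 11.2, 8.76, 9.37 and 11.8 CPM. The 4 adenoma values all lay above the 4 crypt values, with a log2 difference of 0.58 ± 0.22 (SE, edgeR adjusted p = 0.0284). This call was lost without VApcMinL replicate 1 (0.53, adjusted p = 0.108) and without ApcMin replicate 2 (0.49, adjusted p = 0.0964), although the level was higher in adenoma than in crypt cells within each of the 4 libraries. In all, 3 of 14 alternatives lost it, with adjusted p up to 0.110. Notch1 was lower in absorptive cells, at 3.01, 1.41, 1.62 and 2.97 CPM, a fall of 1.76 ± 0.26 on the log2 scale from crypt cells (adjusted p = 8.31e-07). In absorptive cells 2 of the 10 genes were higher and 4 lower, where 64.9% of all genes were called and the median of all genes was shifted by 0.20. Fitted changes in this class can lie above the log2 differences of CPM within libraries. For Hes1 the fit gave -0.52, and CPM gave -1.32, -0.95, -1.16 and -0.86. For Dll1 the fit gave 2.62, and CPM gave 1.86, 2.22, 2.17 and 2.02.

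Notch1 in goblet cells, at 4.31, 6.09, 4.72 and 3.31 CPM, lay below every crypt value and above every absorptive value. Its fall of 1.05 ± 0.34 against crypt cells (adjusted p = 0.0211) was not called without VApcMinL replicate 2 (-0.71, adjusted p = 0.247). Tuft cells stood at 10.5, 37.9, 25.8 and 43.6 CPM, 3 of the 4 above every crypt value, with a log2 difference of 1.38 ± 0.36 (adjusted p = 0.00452) that was not called without VApcMinL replicate 2 (1.11, adjusted p = 0.177). Notch2 (chr3:98013527-98150361, plus strand) differed more between kits than between adenoma and crypt cells. It stood at 13.5, 9.94, 4.59 and 6.98 CPM in adenoma cells and at 12.8, 8.91, 3.06 and 5.36 CPM in crypt cells, with a log2 difference of 0.14 ± 0.28 that did not pass the test (adjusted p = 0.715). In absorptive cells, at 3.01, 3.93, 0.287 and 2.13 CPM, Notch2 was lower than in crypt cells by 1.26 ± 0.32 on the log2 scale (adjusted p = 0.00091).

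The Delta ligands were higher in goblet and absorptive cells than in crypt cells. Promoters of 2 ligands and 2 fate factors are shown here because these genes differed between adenoma or goblet cells and crypt cells. Other genes that also differed, such as Dll4 and Gfi1, are not printed. RefSeq (GRCm38.p6) gave promoter entries for 8 of the 10 genes, and Hes1 and Hey1 had no entry in the table used. The 250 bases before the start are printed 5′ to 3′ on the strand of the gene, with motif matches in capitals. The motifs searched on both strands were TGGGAA for RBPJ, CACNAG for the N-box of Hes proteins and CAGCTG for an E-box of bHLH factors such as Atoh1, and none of these 3 overlaps another in the windows shown. They stand for chr17:27728952-27729201 (minus strand, Spdef), chr6:64728875-64729124 (plus strand, Atoh1), chr17:15376933-15377182 (minus strand, the second of the Dll1 entries) and chr2:137116521-137116770 (minus strand, Jag1).
Spdef: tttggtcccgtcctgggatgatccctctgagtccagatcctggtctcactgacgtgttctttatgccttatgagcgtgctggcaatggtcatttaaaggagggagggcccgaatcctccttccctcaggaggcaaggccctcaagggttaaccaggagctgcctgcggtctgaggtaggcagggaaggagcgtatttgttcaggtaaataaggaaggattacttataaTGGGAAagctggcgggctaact
Atoh1: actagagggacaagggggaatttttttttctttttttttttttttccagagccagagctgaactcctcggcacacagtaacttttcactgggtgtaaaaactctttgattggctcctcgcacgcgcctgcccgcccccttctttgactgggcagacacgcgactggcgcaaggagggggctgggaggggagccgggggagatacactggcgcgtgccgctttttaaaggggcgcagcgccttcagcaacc
Dll1: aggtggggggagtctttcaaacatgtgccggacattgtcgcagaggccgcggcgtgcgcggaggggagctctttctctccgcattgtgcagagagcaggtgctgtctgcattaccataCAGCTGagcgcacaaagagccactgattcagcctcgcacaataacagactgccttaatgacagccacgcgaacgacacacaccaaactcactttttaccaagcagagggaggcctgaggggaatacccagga
Jag1: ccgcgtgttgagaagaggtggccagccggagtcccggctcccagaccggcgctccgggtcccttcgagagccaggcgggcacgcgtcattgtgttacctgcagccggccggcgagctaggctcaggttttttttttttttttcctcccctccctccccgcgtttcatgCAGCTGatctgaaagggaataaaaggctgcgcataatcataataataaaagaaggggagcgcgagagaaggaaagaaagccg
Spdef held the RBPJ letters at position -22 from the start, Dll1 and Jag1 held the E-box letters at -132 and -82, and the Atoh1 window held none of the 3 motifs. The first Dll1 entry, which is not printed, also held none of the 3 motifs. Of all 32851 promoter entries, 21.6% held the RBPJ letters, 36.7% the N-box and 13.0% the E-box within the same 250 bases, so a match describes letters only.

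Dll1 (chr17:15367354-15376872, minus strand) presents the Notch signal to neighboring cells. It stood in adenoma cells at 1.41, 0.574, 0.693 and 1.04 CPM, resting on 15, 6, 8 and 53 UMIs, and in crypt cells at 4.77, 3.69, 2.55 and 2.61 CPM. All 4 adenoma values were below all 4 crypt values, with a log2 difference of -1.94 ± 0.29 (adjusted p = 2.48e-06). Goblet cells were at 23, 18.3, 23 and 26 CPM, higher than crypt cells by 2.99 ± 0.27 on the log2 scale (adjusted p = 7.72e-10). Absorptive cells were also above crypt cells, at 17.5, 17.4, 11.9 and 10.8 CPM (2.62 ± 0.25, adjusted p = 1.91e-10), or 1.62 ± 0.27 with a mitochondrial limit of 10%. As background, Dll1 is known from secretory precursors. Among the absorptive cells, 53, 150, 249 and 118 held a Dll1 UMI, and 0, 0, 0 and 4 of these also held an Atoh1 UMI, where 0.573, 0.498, 0.235 and 1.13 would be expected if the genes were unrelated. In goblet cells, 4 of 10, 14 of 17, 21 of 22 and 34 of 40 Dll1-positive cells also held Atoh1, beside 3.65, 10.6, 15.8 and 27.3 expected. The expected numbers take all cells as equally deep, while deeper cells are likelier to hold both genes. The part of depth in any excess was not tested.

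Tuft cells, at 10.5, 28.4, 14.7 and 24 CPM of Dll1, lay above every crypt value (2.38 ± 0.45, adjusted p = 0.00019). In tuft cells 4 of the 10 genes were higher and 1 lower than in crypt cells, with 29.3% of all genes called. Enteroendocrine cells were at 12.8, 0, 21.5 and 10.2 CPM on 8 UMIs, and their call (1.56 ± 0.61, adjusted p = 0.0469) was lost without ApcMin replicate 1 (1.62, adjusted p = 0.0779), without ApcMin replicate 2 (1.16, adjusted p = 0.307) and without VApcMinL replicate 2 (1.61, adjusted p = 0.191). Outside the epithelium, fibroblasts held Dll1 at 54.3, 60.6, 61.9 and 64.8 CPM.

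Dll4 (chr2:119325784-119335962, plus strand), the other Delta ligand of the crypt, had its highest epithelial means in enteroendocrine and goblet cells. It stood at 12.8, 51.5, 28.7 and 20.3 CPM in enteroendocrine cells, against 0.917, 0.615, 0.511 and 0.687 CPM in crypt cells (4.95 ± 0.61, adjusted p = 3.02e-07). In that comparison 3 of the 10 genes were higher and 2 lower, with 35.8% of all genes called. Goblet cells were at 10.1, 18.3, 18.3 and 10.7 CPM (4.56 ± 0.43, adjusted p = 1.48e-09). Both classes lay above every crypt value. Tuft cells, at 0, 9.46, 11.1 and 15.2 CPM, were above crypt cells in 3 of 4 libraries (3.82 ± 0.69, adjusted p = 9.68e-05), and absorptive cells, at 1.64, 1.31, 2.08 and 1.07 CPM, in all 4 (1.70 ± 0.44, adjusted p = 0.00138).

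Adenoma cells held Dll4 at 1.79, 1.82, 1.13 and 1.74 CPM, again above all crypt values (1.10 ± 0.43, adjusted p = 0.0364). This call was the least stable of the 6 and was lost without VApcMinL replicate 1 (1.00, adjusted p = 0.149), ApcMin replicate 2 (1.14, adjusted p = 0.0621) or VApcMinL replicate 2 (1.03, adjusted p = 0.121). In all, 6 of 14 alternatives lost it. Endothelial cells express Dll4 strongly, at 137, 122, 59.7 and 191 CPM in these libraries, and the endothelial list summed to 150, 88, 171 and 157 CPM in adenoma cells against 7 to 25 CPM in crypt cells, with all 8 of its genes detected. Of that list, Cdh5 (67.2 CPM on average) and Flt1 (43.4 CPM), which mark endothelial cells like the rest, made up most of the adenoma value. Kdr, Pecam1, Plvap and Ptprb were at 0.353, 1.12, 1.93 and 0.44 CPM against 981, 1059, 2657 and 616 CPM in endothelial cells. Egfl7 and Esam of the list are not given here. The part of the endothelial list in the Dll4, Notch1 and Hey1 levels was not tested.

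Jag1 (chr2:137081456-137116644, minus strand), a ligand of the Serrate type, went with crypt cells. It stood at 10.5, 10.5, 9.37 and 8.66 CPM in crypt cells and at 4.89, 4.21, 5.28 and 5.24 CPM in adenoma cells. The groups did not overlap, and the log2 difference was -1.13 ± 0.24 (adjusted p = 0.000248). Jag1 was also lower in absorptive cells, at 7.66, 3.93, 3.56 and 4.19 CPM (-0.56 ± 0.25, adjusted p = 0.0489), a call lost without VApcMinL replicate 1 (-0.63, adjusted p = 0.0576), ApcMin replicate 2 (-0.52, adjusted p = 0.118) or VApcMinL replicate 2 (-0.59, adjusted p = 0.109).

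Secretory cells other than goblet cells held few Jag1 transcripts. In Paneth cells it was at 0, 0, 2.99 and 1.75 CPM, and the difference from crypt cells was -2.28 ± 0.58 on the log2 scale (adjusted p = 0.0032), or -2.24 without VApcMinL replicate 2, where it was not called (adjusted p = 0.0827). In all, 2 of 14 alternatives lost the Paneth call, with adjusted p up to 0.472. Tuft cells held 3 UMIs in all and enteroendocrine cells 1 UMI, giving pooled ratios to crypt cells of 0.333 (95% counting interval 0.0682 to 0.984) and 0.150 (0.00378 to 0.844). The tuft call was lost without either ApcMin library or VApcMinL replicate 2 (adjusted p 0.0843, 0.226 and 0.173), and the enteroendocrine call without ApcMin replicate 2 or VApcMinL replicate 2 (0.0693 and 0.0777). Goblet cells, at 2.87, 10.4, 5.31 and 6.61 CPM, did not differ from crypt cells beyond the spread (-0.36, adjusted p = 0.425).

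**Figure D2:**
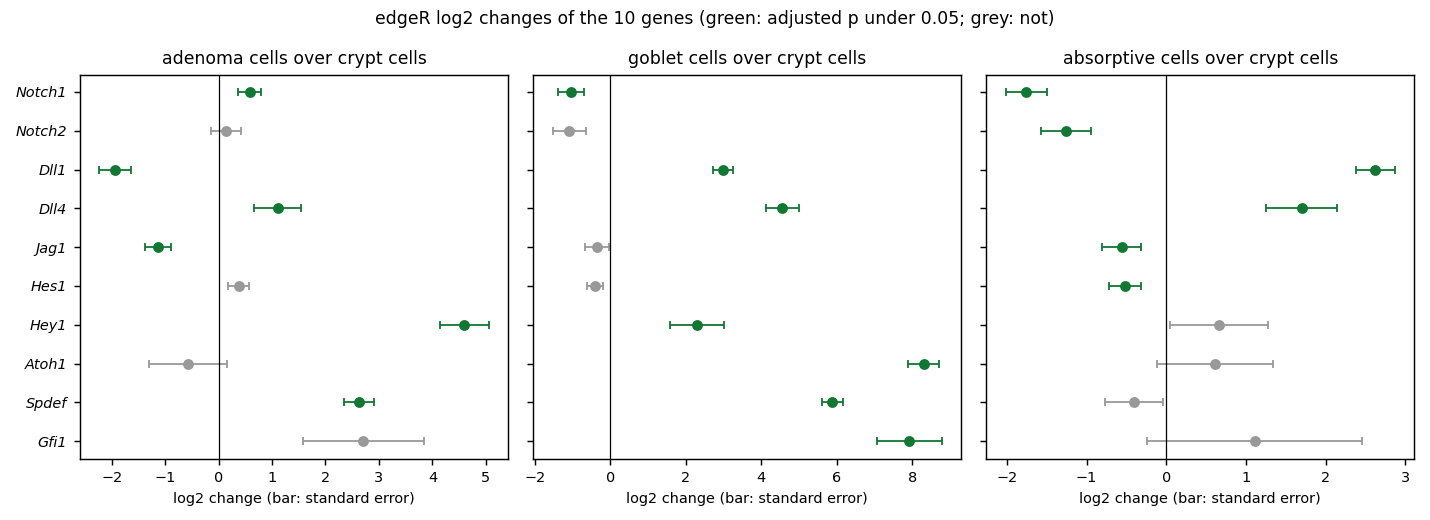
Log2 change of the 10 genes (y axis) over crypt cells in adenoma, goblet and absorptive cells (x axis, edgeR estimate, bars of 1 standard error), green where the adjusted p was under 0.05. Dll1 lies left of 0 in adenoma cells (-1.94) and right of 0 in goblet (2.99) and absorptive cells (2.62). Gfi1 rests on 1 UMI in crypt cells.

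Of the Notch targets, Hey1 was called in adenoma against crypt cells and Hes1 was not, and a difference between the genes was not tested. Hes1 (chr16:30064384-30067796, plus strand), the repressor of Atoh1, stood in adenoma cells at 218, 171, 136 and 121 CPM and in crypt cells at 137, 126, 85.8 and 94.1 CPM. It was higher in adenoma than in crypt cells within each of the 4 libraries, by 0.67, 0.44, 0.67 and 0.37 on the log2 scale, but the groups overlapped and the fitted difference did not pass the test (0.37 ± 0.20, adjusted p = 0.119). In goblet cells Hes1 was at 112, 66.1, 58.4 and 61.2 CPM, also without a call (-0.41 ± 0.21, adjusted p = 0.159). It was lower in absorptive cells, at 55, 65.3, 38.5 and 51.8 CPM (-0.52 ± 0.20, adjusted p = 0.0233, from -1.16 after thinning to -0.52 over the alternatives), and in enteroendocrine cells, at 0, 116, 50.2 and 38.2 CPM (-1.45 ± 0.35, adjusted p = 0.00167). The enteroendocrine value in VApcMinL replicate 1, on 10 cells, lay among the crypt values.

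Paneth cells held Hes1 at 130, 156, 136 and 154 CPM, against 137 CPM for the highest crypt value. The call over crypt cells (0.60 ± 0.22, adjusted p = 0.0425) was lost without ApcMin replicate 2 (0.51, adjusted p = 0.159) or VApcMinL replicate 2 (0.52, adjusted p = 0.246). In all, 7 of 15 alternatives lost it, with adjusted p up to 0.724. Over crypt cells, 5 of the 10 genes were higher in Paneth cells and 1 lower, where 30.0% of all genes were called.

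Hey1 (chr3:8663359-8667256, minus strand), a relative of Hes1 best known from vessels, separated adenoma from crypt cells more than any other of the 10 genes. Adenoma cells stood at 20.3, 27, 15.8 and 16.2 CPM on 216, 282, 182 and 827 UMIs, and crypt cells at 1.1, 0.307, 0.341 and 1.1 CPM on 6, 2, 2 and 8 UMIs. Every adenoma value lay above every crypt value, with a log2 difference of 4.60 ± 0.46 (adjusted p = 1.22e-09). A Hey1 UMI was found in 31.3%, 34.2%, 31.3% and 29.2% of adenoma cells, in 0.656% to 1.33% of crypt cells and in 0.529% to 0.763% of immune cells, which should lack it. Median depths were 17439 to 32497 UMIs per adenoma cell and 2732 to 4641 per immune cell. After each cell was thinned to 1000 UMIs, 1.55%, 3.12%, 2% and 1.45% of adenoma cells and no crypt cell of any library held a Hey1 UMI. The counts of 0 allow crypt shares of up to 0.984% to 2%, so the thinned shares separate the classes less firmly than the levels do. Endothelial cells held Hey1 at 105, 78.4, 107 and 40.9 CPM, with the endothelial genes of the adenoma gate as given above.

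Paneth cells held Hey1 at 11.8, 33.4, 15 and 3.51 CPM, also above every crypt value (4.31 ± 0.69, adjusted p = 1.61e-05), on 2, 9, 10 and 4 UMIs. With gate limits 2 times as high, VApcMinL replicate 2 alone kept 10 or more Paneth cells and the difference turned to -3.70. Goblet cells, at 2.87, 4.35, 1.77 and 3.31 CPM (2.30 ± 0.72, adjusted p = 0.0163), lost the call without VApcMinL replicate 1 (1.84, adjusted p = 0.107). In tuft cells 1 Hey1 UMI was found.

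Of the fate factors, Atoh1 and Gfi1 went with goblet cells among the epithelial classes, while Spdef was also raised in adenoma cells. Atoh1 (chr6:64729125-64731245, plus strand), the bHLH factor that sets the secretory fate, stood at 81.9, 108, 104 and 106 CPM in goblet cells, above all values of the other 6 classes. Crypt cells held 0, 3, 2 and 4 Atoh1 UMIs and adenoma cells 3, 3, 0 and 19 UMIs. Goblet cells exceeded crypt cells by 8.30 ± 0.41 on the log2 scale (adjusted p = 1.30e-14), and adenoma cells did not differ from crypt cells beyond the spread (-0.57 ± 0.73, adjusted p = 0.555).

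An Atoh1 UMI was found in 36.5%, 62.5%, 72.0% and 68.3% of goblet cells and in 0.665%, 0.586%, 0% and 0.756% of adenoma cells. The 0 of 300 adenoma cells in ApcMin replicate 2 allow a share of up to 1%. Immune cells held an Atoh1 UMI in 0.421%, 0.529%, 0% and 0.352% of cells, so the adenoma shares were at the level of background. The adenoma gate left out cells whose goblet, Paneth, tuft, enteroendocrine or absorptive markers reached their limits divided by 2. Tumor cells with such markers were thus not counted as adenoma cells, and these shares do not cover them. Paneth cells were at 0, 3.72, 5.99 and 6.14 CPM, above crypt cells in the fit (3.85 ± 0.86, adjusted p = 0.00115) and below every goblet value, while enteroendocrine cells held no Atoh1 UMI and tuft cells 1. In such small gates these counts do not show absence.

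Spdef (chr17:27714352-27728955, minus strand), an ETS factor that promotes goblet and Paneth maturation, stood at 142, 142, 161 and 125 CPM in goblet cells. Adenoma cells were at 17, 29.2, 15.3 and 17.7 CPM on 181, 305, 177 and 904 UMIs, and crypt cells at 2.57, 3.07, 2.04 and 3.43 CPM. The adenoma values lay above all crypt values and below all goblet values. The log2 difference from crypt cells was 2.63 ± 0.28 in adenoma cells (adjusted p = 5.81e-09) and 5.89 ± 0.29 in goblet cells (adjusted p = 9.37e-16). Endothelial cells and fibroblasts held no Spdef UMI.

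The Spdef transcripts of adenoma cells were spread over many cells, few of which held a UMI of Atoh1. A Spdef UMI was found in 25.9%, 27.9%, 25.7% and 30.1% of adenoma cells, against 2.96%, 3.61%, 1.33% and 4.03% of crypt cells and 0% to 0.704% of immune cells. The exact 95% intervals of the adenoma shares (counting error only) ran from 20.8% to 32.3% over the libraries and those of the crypt shares from 0.162% to 6.93%. Of 117, 143, 77 and 518 Spdef-positive adenoma cells, 1, 1, 0 and 4 also held an Atoh1 UMI, where 0.778, 0.838, 0 and 3.92 would be expected if the genes were unrelated. In goblet cells these were 14 of 30, 33 of 50, 53 of 66 and 68 of 90, where 11.0, 31.2, 47.5 and 61.5 would be expected. Here too the expected numbers leave out differences in depth between cells. After thinning to 1000 UMIs the Spdef shares were 1.11%, 2.73%, 1.67% and 2.15% in adenoma cells and 0.329%, 0.328%, 0% and 0% in crypt cells. The goblet marker list was also higher in adenoma cells, at 715 to 1701 CPM against 396 to 735 CPM in crypt cells, mostly through Agr2 (771 against 162 CPM on average), while the goblet mucin Muc2 was at 17.9 and 18.3 CPM and Clca1 at 3.57 and 2.49 CPM.

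**Figure D3:**
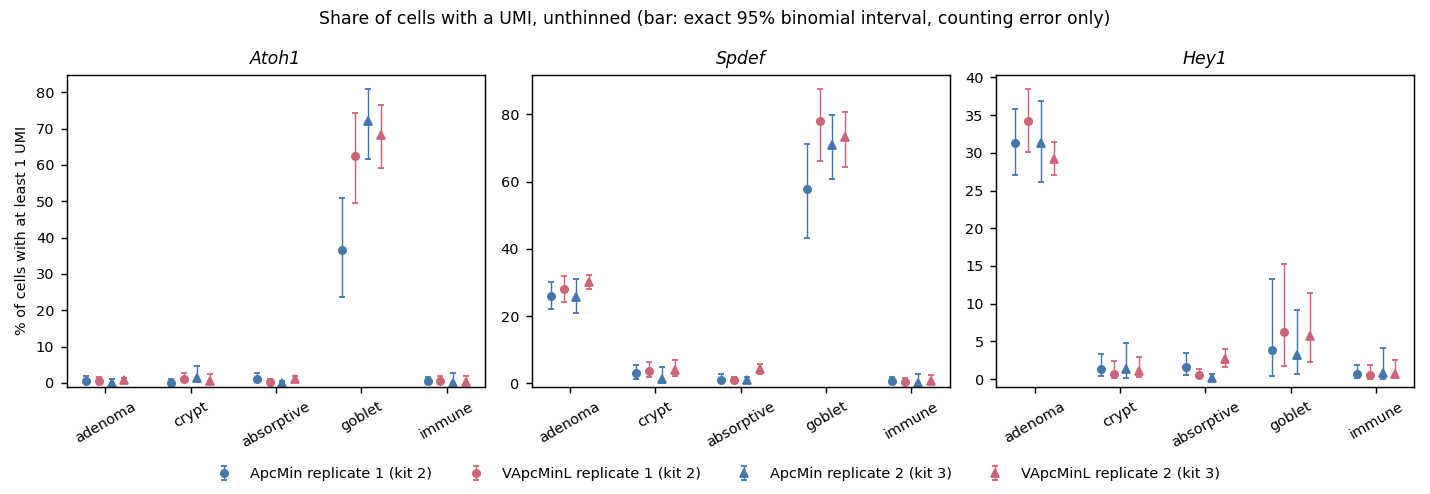
Share of cells with at least 1 UMI of Atoh1, Spdef or Hey1 (y axis, percent, all UMIs of each cell) in adenoma, crypt, absorptive, goblet and immune cells (x axis), with 1 point per library and exact 95% binomial bars that cover counting error only. Atoh1 leaves the baseline only in goblet cells (36.5% to 72.0%), Spdef in goblet and adenoma cells, and Hey1 above all in adenoma cells (29.2% to 34.2%).

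By mean level, Spdef in the other secretory classes lay between crypt and goblet cells. Paneth cells were at 17.7, 18.6, 24 and 30.7 CPM (3.29 ± 0.41, adjusted p = 3.89e-07), and tuft cells at 21.1, 9.46, 18.4 and 21.8 CPM (2.51 ± 0.61, adjusted p = 0.00245). Both lay above every crypt value, but 2 of 15 alternatives lost the tuft call, with adjusted p up to 0.124. Enteroendocrine cells ranged from 0 to 51.5 CPM, and their call (2.08 ± 0.76, adjusted p = 0.0336) was lost without any 1 of ApcMin replicate 1, VApcMinL replicate 1 and VApcMinL replicate 2 (adjusted p 0.0964, 0.214 and 0.0514). In absorptive cells Spdef was at 1.09, 0.907, 0.718 and 3.12 CPM, and the fitted difference from crypt cells did not pass the test (adjusted p = 0.340). By CPM it was lower than in crypt cells within each library, by log2 differences of -1.11, -1.72, -1.53 and -0.15.

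Gfi1 (chr5:107716657-107726036, minus strand), a zinc finger repressor that works downstream of Atoh1, stood at 11.5, 8.7, 14.8 and 14.9 CPM in goblet cells. Crypt cells held 1 UMI of it in all 4 libraries together, so the pooled ratio of goblet to crypt cells was 333 with a 95% counting interval of 58.0 to 13312. Adenoma cells held 0, 7, 15 and 8 UMIs, and the pooled ratio was 8.99 (1.5 to 367), without a call in the fit (adjusted p = 0.0536) although 6 of 14 alternatives called it, among them the fit without ApcMin replicate 1 (4.87, adjusted p = 0.0223), with adjusted p from 0.0149 to 0.336 over the 14. Paneth cells held 0, 1, 0 and 3 UMIs (pooled ratio 44.7, 4.42 to 2202), and their call (adjusted p = 0.0201) was lost without VApcMinL replicate 1 (adjusted p = 0.097) or VApcMinL replicate 2 (adjusted p = 0.372). Immune cells, which use Gfi1 in their own development, were at 6.85, 20.2, 11.7 and 18.2 CPM. Tuft and enteroendocrine cells held none, which in such small gates does not show absence.

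Ranked by mean level, few neighboring classes were fully separated. Goblet cells lay above the next class in every library for Atoh1, Spdef and Gfi1, where the next class was Paneth cells. For Spdef, tuft cells also lay above crypt cells, for Notch1 crypt cells lay above goblet cells and goblet above absorptive cells, for Dll4 absorptive cells lay above crypt cells, and for Hey1 goblet cells lay above absorptive cells. All other neighbors in the order of any of the 10 genes overlapped in their ranges.

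Between the labelled genotypes, no difference in the tested genes of the 10 passed the test in adenoma, crypt, goblet or absorptive cells. Paneth, tuft and enteroendocrine cells were not compared between genotypes. In adenoma cells 8 of the 10 had enough UMIs to be tested, and edgeR, with the kit as a block, called 0 of 12624 genes (0%), beside 26 genes at an unadjusted p under 0.05 and 3 called by DESeq2. The 26 are fewer than the share of 0.05 expected if no gene differed, so they are no sign of a difference. Spdef had the largest log2 difference of VApcMinL over ApcMin, 0.48 ± 0.23 (unadjusted p = 0.110, adjusted p = 1), with 0.77 in the kit 2 pair and 0.20 in the kit 3 pair. For Hes1 the difference was -0.26 ± 0.22, with -0.35 and -0.17 in the kit pairs, and for Hey1 it was 0.22 ± 0.21, with 0.41 and 0.03. Notch1 (-0.06 ± 0.21), Notch2 (0.07 ± 0.43), Jag1 (-0.12 ± 0.37), Dll4 (0.32 ± 0.61) and Dll1 (-0.32 ± 0.91) were nearer to 0 relative to their standard errors, and the Dll1 value joined -1.23 in kit 2 with 0.51 in kit 3. Differences of the size of these standard errors were not detectable with 2 libraries per group.

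Of the 10 genes, 6 were tested in crypt, 6 in goblet and 8 in absorptive cells, and none of these was called. In crypt cells 5 of 10866 genes were called (0.0460%), in goblet cells 1 of 8573 (0.0117%) and in absorptive cells 0 of 11165 (0%, against 136 at an unadjusted p under 0.05 and 3 by DESeq2). Goblet cells differed by 0.17 ± 0.28 in Atoh1, by -0.22 ± 0.28 in Spdef and by -0.06 ± 0.34 in Dll1. In absorptive cells Notch2 had the largest difference, 1.55 ± 0.75 (unadjusted p = 0.0939), on 0.287 CPM in ApcMin replicate 2. The adenoma over crypt difference, compared between the genotypes within libraries, was called for 0 of 12763 genes (0%, beside 155 unadjusted and 2 by DESeq2), and was -0.28 ± 0.17 for Hes1, 0.13 ± 0.90 for Hey1 and -0.04 ± 0.40 for Spdef. The 136 and 155 genes are likewise fewer than a share of 0.05 of the genes tested.

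**Figure D4:**
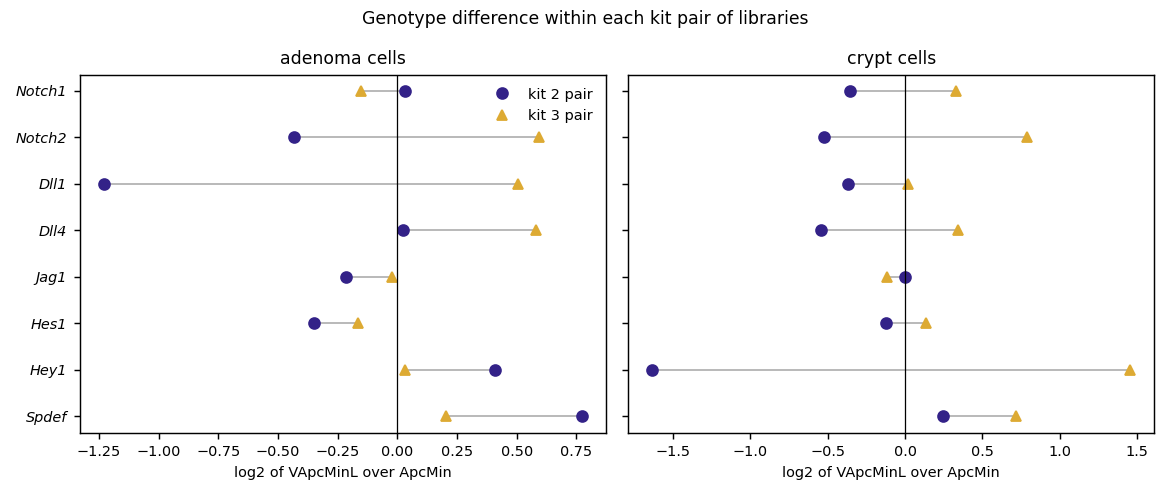
Log2 of the level in the library labelled VApcMinL over that labelled ApcMin (x axis) for 8 of the genes (y axis), within the kit 2 pair (circles) and the kit 3 pair (triangles), in adenoma cells and crypt cells. In adenoma cells Spdef lies right of 0 in both pairs (0.77 and 0.20) and Hes1 left of 0 in both (-0.35 and -0.17), while Dll1 changes side.

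Of 38 further pathway genes 28 were tested in adenoma cells, of which 8 were higher and 5 lower than in crypt cells, near the 47.4% called over all genes, with a median log2 change of 0.04 against 0.03 over all genes. The genes higher in adenoma cells included Lfng, a glycosyltransferase that modifies Notch receptors, at 22.9, 16.4, 12.2 and 16.4 CPM against 3.85, 2.92, 1.19 and 1.51 CPM (2.73 ± 0.33, adjusted p = 4.01e-08). The ligand Jag2 stood at 4.52, 3.16, 9.7 and 14.7 CPM against 0.154 to 2.47 CPM (2.69 ± 0.36, adjusted p = 2.49e-07), opposite in sign to Jag1. Dtx3, of the Deltex family, was at 5.36, 13.7, 10.8 and 4.6 CPM against 0 to 0.922 CPM (3.86 ± 0.45, adjusted p = 2.90e-08).

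Nrarp, Hes6 and Rbpj were chosen after their values were seen. Nrarp, a Notch target that limits the pathway, was lower in adenoma cells, at 11.9, 4.69, 5.02 and 9.55 CPM against 24.2, 16.8, 22.1 and 23.6 CPM (-1.67 ± 0.23, adjusted p = 5.36e-07). It thus went the other way from the target Hey1. Hes6, which opposes Hes1, was higher, at 239, 276, 197 and 220 CPM against 42.9 to 59.1 CPM (2.01 ± 0.19, adjusted p = 3.83e-10). Rbpj, the DNA-binding partner of Notch, stood at 18.8, 18.6, 27.2 and 26.2 CPM against 17.1, 16.3, 23.2 and 23.1 CPM and did not differ beyond the spread (0.02 ± 0.20, adjusted p = 0.947).

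Among 36 further factors of secretory and absorptive fate, 34 were tested in adenoma against crypt cells, and 9 were higher and 10 lower, beside 47.4% called over all genes. Their median was 0.58, or 0.36 with 3 genes at 0 in crypt cells set to their lower bound and 4 genes without a usable fold left out. The absorptive and intestinal factors Cdx1, Hnf4g and Hnf4a were lower. Cdx1 stood at 30, 5.16, 8.06 and 25.9 CPM against 136 to 177 CPM (-3.40 ± 0.28, adjusted p = 2.45e-11), Hnf4g at 7.71 to 10.5 CPM against 34.5 to 89.4 CPM (-2.75 ± 0.26), and Hnf4a at 24.3 to 52.2 CPM against 173 to 203 CPM (-2.51 ± 0.22). The absorptive marker list was also lower in adenoma cells, at 545 to 1414 CPM against 3229 to 4746 CPM in crypt cells. The part of these absorptive transcripts in the lower factors and in the lower Dll1 was not tested. Creb3l4, a secretory pathway factor, was higher, at 9.22, 32.3, 18.6 and 15.7 CPM against 1.28 to 2.89 CPM (2.92 ± 0.30, adjusted p = 2.76e-09), and so was Prdm1, at 5.26 to 19.6 CPM against 2.04 to 2.77 CPM (2.45 ± 0.33).

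In goblet cells 7 of the 28 pathway genes were higher and 1 lower, and of the 34 fate factors 11 were higher and 1 lower, beside 29.2% called over all genes. Among the factors, Creb3l4 was at 60 to 84.3 CPM against 1.28 to 2.89 CPM (5.21 ± 0.31), Klf4 at 218 to 391 CPM against 16.5 to 34.3 CPM (3.65 ± 0.30), Foxa3 at 108 to 164 CPM against 10.3 to 14.7 CPM (3.64 ± 0.27) and Creb3l1 at 111 to 148 CPM against 13.2 to 16 CPM (3.38 ± 0.15). Paneth cells had 6 pathway genes higher and 3 lower, and 11 fate factors higher and 5 lower, beside 30.0% over all genes. They shared with adenoma cells a higher Dtx3 (4.17 ± 0.66) and Creb3l4 (3.85 ± 0.41) and a lower Cdx1 (-2.73 ± 0.39) and Hnf4g (-2.87 ± 0.48), beside the adenoma markers given above.

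Tuft cells had 8 pathway genes higher and none of the 28 lower, and 10 fate factors higher and 6 lower, beside 29.3% over all genes. Pou2f3, the tuft cell factor, stood at 158, 218, 111 and 207 CPM in tuft cells and rested on 2 UMIs in crypt cells. Gfi1b, the paralog of Gfi1, was at 31.6, 37.9, 7.37 and 15.2 CPM in tuft cells and at 0 UMIs in crypt cells, at least 144-fold higher over the summed libraries (floor of 3 counts in crypt cells). Among the 7 epithelial classes, Gfi1 had its highest mean in goblet cells and Gfi1b in tuft cells.

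Enteroendocrine cells had 8 pathway genes higher and 1 lower, and 17 fate factors higher and 4 lower, with a median of 1.82 for the latter and 35.8% called over all genes. Neurod1, a bHLH factor of the endocrine lineage, stood at 654, 206, 1011 and 298 CPM while Atoh1 had no UMI in the same cells. With so few cells this does not show absence, and the edgeR difference of Atoh1 from crypt cells was -4.25 ± 6.70 (adjusted p = 0.670). Isl1, Pax6, Fev and Rfx6 were at 0 UMIs in crypt cells and at least 2091-fold, 1021-fold, 912-fold and 462-fold higher over the summed libraries.

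Absorptive cells had 11 pathway genes higher and 4 lower, and 9 fate factors higher and 9 lower, shares below the 64.9% over all genes. Hes2, a relative of Hes1, was higher, at 7.38, 9.47, 16.8 and 11 CPM against 0 to 2.04 CPM (4.42 ± 0.41, adjusted p = 6.12e-09), where Hes1 was lower. Numb, which limits Notch, was higher (1.73 ± 0.19, adjusted p = 2.83e-09), and Nrarp was lower (-1.70 ± 0.24, adjusted p = 5.65e-07). The factors Klf4 (3.96 ± 0.30) and Maf (3.64 ± 0.23) were higher, and the progenitor factors Sox4 (-1.91 ± 0.29) and Sox9 (-1.63 ± 0.23) were lower. None of the tested genes of both lists was called between the genotypes in adenoma, crypt, goblet or absorptive cells.

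**Figure D5:**
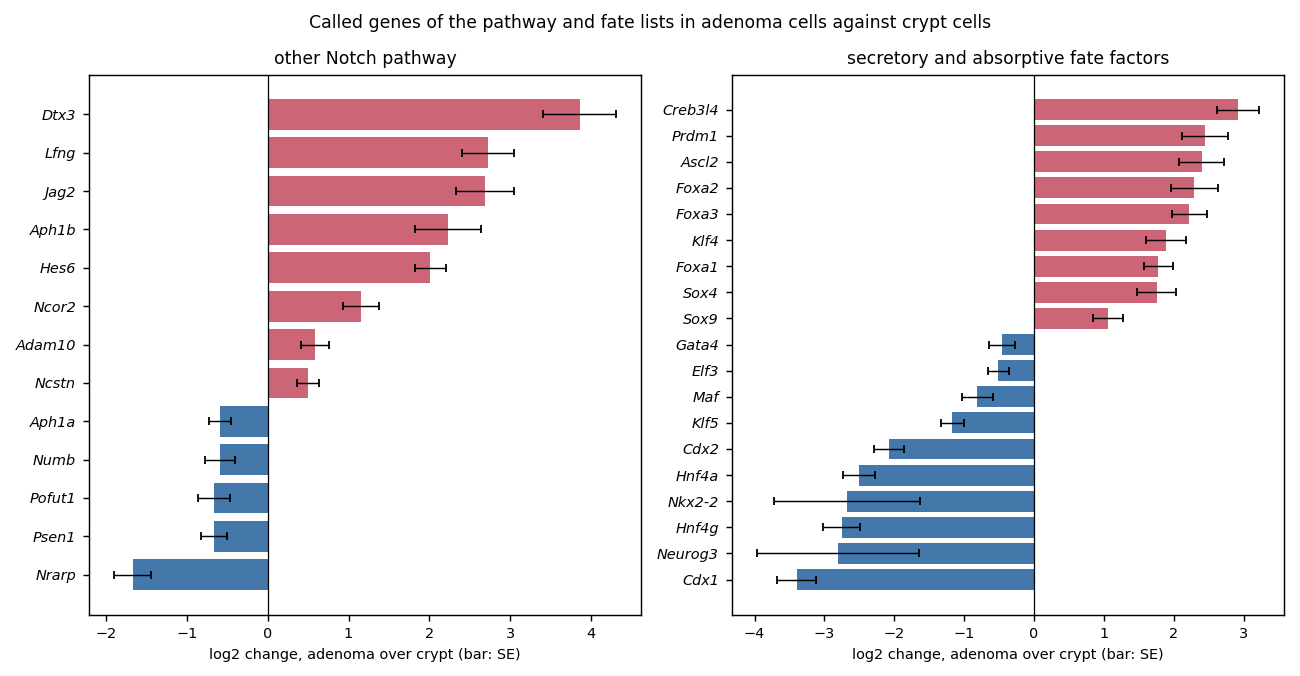
Log2 change of adenoma over crypt cells (x axis, edgeR estimate, black bars of 1 standard error) for the called genes of the further pathway genes and of the fate factors (y axis), red where higher and blue where lower in adenoma cells. Dtx3 (3.86), Creb3l4 (2.92) and Lfng (2.73) stand at the upper end, and Cdx1 (-3.40), Hnf4g (-2.75) and Hnf4a (-2.51) at the lower end. Nkx2-2 rests on 3 UMIs in crypt cells.

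The genes whose levels went most like those of the fate factors were found over 28 sums (7 classes in 4 libraries, which share depth and cells) among 11977 genes, by Pearson's r of log2(CPM + 1) centred on each library. This is a description. For Atoh1 they were Chrm1 (r = 0.954), A4gnt (0.951), Galnt5 (0.943), Sytl2 (0.940) and Ccl6 (0.938). For Spdef they were Lrrc26 (r = 0.922), Qsox1 (0.919), Creb3l4 (0.911), Snhg18 (0.881) and Rab27a (0.863). For Gfi1 they were Sytl2 (r = 0.961), Atoh1 (0.925), Fer1l6 (0.918), Chrm1 (0.913) and F13a1 (0.910). The genes most like Hes1 were Got2 (r = 0.951), Gtf3c6 (0.939), 1700021F05Rik (0.937), Asxl1 (0.926) and Pno1 (0.923), none of them of the pathway.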

How the data were processed

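The authors deposited raw UMI counts per gene and barcode for 4 libraries. Per the labels, Cell Ranger 2.1.1 and Seurat 3.1.1 were used with an mm10 (GRCm38) reference, and the kit 3 gene tables list 31053 genes against 27998 in kit 2, so only genes whose identifier was shared by all 4 tables were kept. Barcodes with at least 1000 UMIs and at most 20% mitochondrial UMIs were kept. Classes were gated on UMIs of marker lists per 10000: epithelial at least 20, endothelial and fibroblast under 20, immune under 50 and red blood cell under 100, then goblet and absorptive at least 200, Paneth 100, tuft 12 and enteroendocrine 20, each below the limits of the other 4 of these lists but with no limit on the adenoma and crypt lists. Adenoma cells had at least 2 and crypt cells at least 10, with the other lists under their limits divided by 2. The limits were set after the distributions had been seen. The gene Defa30 of the Paneth list was not among the shared genes. Doublets were removed with Scrublet in scanpy 1.11.5 as an alternative only, at 0.8% per 1000 cells.

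Counts were summed per library and class with at least 10 cells and compared in edgeR 4.0.16 by its quasi-likelihood test (R 4.3.3, TMM scaling, minimum count 10), Benjamini-Hochberg adjusted over all genes tested and called at 0.05. All 7 classes entered 1 fit with library as a block, and genotypes were compared per class with the kit as a block. The standard error is the log2 change divided by the square root of F. The fit was also run on simulated counts with the same spread for every gene and no kit effect. Changes were put only into well-counted genes, so that run does not cover genes with few UMIs or differences between kits. DESeq2 1.42.0, other scalings, filters and gates, thinning and leaving out each library were the alternatives. Replicate numbers mark the kit per the labels, a shared batch, and deviations of same-kit libraries in adenoma cells correlated at 0.110 over 12624 genes. Planned tests of Atoh1-positive against Atoh1-negative cells needed at least 10 cells on each side per library and could not be fitted.

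The 10 genes and the lists were chosen with earlier results of these data known. Besides the 10 genes and Lef1, the rule named per comparison up to 8 called list genes with the same sign in every library or kit pair and at least 5 CPM in the higher class, by size of change, and for Atoh1, Spdef, Gfi1 and Hes1 the 5 genes most like them in level. Intervals and limits for counts of 0 (3 counts) cover counting error only. Counts of 3′ ends are not compared between genes.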

Additional observations from a re-analysis of the deposited data

How the results depend on the processing

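Of 599 recomputed values of the 10 genes under the alternatives, 525 kept their direction and their side of the threshold, 63 kept the direction but were no longer called, 6 became called and 5 turned. These values cover 42 results. They are all 10 genes in adenoma against crypt cells, the called genes of the other classes, and Hes1, Hey1 and Spdef between genotypes in adenoma cells. Results not called in the other classes are left out, so few values could become called. The losses named with single genes above are mostly those on leaving out a library, and other alternatives lost further calls. Jag1 in tuft cells and Dll1 in enteroendocrine cells each lost the call in 8 of 14 alternatives. In adenoma against crypt cells, Hey1 (3.57 to 6.08), Spdef (1.94 to 3.34), Dll1 (-2.15 to -1.78) and Jag1 (-1.27 to -1.05) stayed called under every alternative that tested them, of which thinning tested only Spdef.

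The number of the 10 genes called fell to 1 in adenoma, goblet, Paneth, enteroendocrine and absorptive cells and to 0 in tuft cells after thinning to 1000 UMIs, which left 2442 genes to test and called 483 to 1552 of them. Of the 10 genes, only Hes1 and Spdef were still tested after thinning, so these counts are not comparable with the others. Gate limits 2 times as high gave 2 in Paneth cells (607 genes in all) and 3 in enteroendocrine cells, a mitochondrial limit of 10% gave 3 in tuft cells (1940 genes in all, against 3393) and 3 in enteroendocrine cells, the crypt gate without Olfm4 gave 3 in enteroendocrine cells, and no library block gave 3 in absorptive cells; the cause was not tested. Leaving out each library in turn gave 4 to 7 genes in adenoma, 6 to 7 in goblet, 3 to 7 in Paneth, 3 to 5 in tuft, 2 to 4 in enteroendocrine and 5 to 6 in absorptive cells. With all UMIs, 6 genes instead of 3 after thinning had a higher share in adenoma than in crypt cells in all 4 libraries. Of the 8 genes with a promoter entry, 7 held a motif in 300 bases and 6 in the 250 before the start.

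Without the replicate block (the kit), 0 of the 10 genes and 0 genes in all were called between the genotypes in each of the 4 classes. Without 1 library, a pair is broken and the kit cannot be a block: the lone library is assumed to vary like the others, and the genotype difference in adenoma cells then turned for Hes1 (0.23 without ApcMin replicate 1) and for Hey1 (-0.25 without VApcMinL replicate 1 and -0.048 without ApcMin replicate 2). Hey1 in Paneth cells turned to -3.70 with gate limits 2 times as high and Spdef in enteroendocrine cells to -2.38 after thinning, on few UMIs. Counts of genes called between genotypes ranged over the alternatives from 0 to 3 in adenoma, 0 to 27 in crypt and in goblet and 0 to 12 in absorptive cells, and for the compared adenoma over crypt difference from 0 to 43, the last without VApcMinL replicate 1.

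With 2 libraries per genotype and 10 to 40 cells per library in Paneth, tuft and enteroendocrine gates, few UMIs limit those values. The tests of Atoh1-positive adenoma cells (3, 3, 0 and 13 cells) and crypt cells (0, 3, 2 and 2), with their alternatives, were not run.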
